A study of Mus musculus with 25 samples.

Results

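The fecal bacteria of ovariectomised mice treated with GEX were compared with those of sham-operated mice, to ask what stayed different from Sham under the treatment. The comparison took the 5 libraries whose titles read OVX+GEX and the 5 whose titles read Sham, 10 of the 25 libraries of the series. Full-length 16S rRNA gene amplicons were read on a PacBio instrument from feces of C57BL/6 mice. Sham mice carried no named treatment, OVX mice had the operation alone (5 libraries, given beside the others), and OVX+GEX mice had the operation and GEX, a treatment that the labels do not spell out. The series' design text mentions a traditional medicine, and its title a decoction. The labels name no dose, duration, age or housing. All samples are labelled male, although the mice of the OVX groups had their ovaries removed. The remaining groups, OVX+PBS and OVX+FMT, were not compared with the others. They entered the model fits, the count filters and the choice of taxa by share or number of ASVs over all 25 libraries.

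Ovariectomy removes the ovaries, the main source of estrogen, and is a standard rodent model of bone loss after menopause. The mouse colon is dominated by anaerobic Firmicutes, chiefly Lachnospiraceae and Oscillospiraceae, which ferment fibre to short-chain fatty acids, and by Muribaculaceae of the Bacteroidetes, which degrade polysaccharides. Some gut bacteria cleave choline and carnitine to trimethylamine, which the liver oxidises to the trimethylamine oxide (TMAO) named in the series title. An ASV (amplicon sequence variant) is a distinct amplicon sequence, and a bacterium with several unlike 16S gene copies can give several ASVs.

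Library totals ran from 9735 to 22404 counts in Sham, from 8498 to 10771 in OVX+GEX and from 9189 to 11252 in OVX. Sham replicates 3 and 4, at 17367 and 22404 counts, stood apart from the other 3 Sham libraries (at most 10130). The community, composition, family richness and genus results that passed are therefore also given without them. The taxa were those of mouse feces: Firmicutes and Bacteroidetes held 80.8% and 14.8% of Sham counts, and 0 names on the lists of reagent contaminants and of sulfate reducers matched a genus of the table. The second list left out Desulfosporosinus, a sulfate-reducing genus that the table holds with 1 ASV in Sham and 1 in OVX+GEX. Shares of counts are relative, so a fall of one taxon and a rise of others cannot be told apart.

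ASV richness stayed low under GEX. It was computed as the number of ASVs expected in 8498 reads, the smallest library total. Sham replicates 1 to 5 held 320, 346, 357, 416 and 350 ASVs, and OVX+GEX replicates 1 to 5 held 304, 264, 197, 186 and 202. Every OVX+GEX library lay below every Sham library, and OVX+GEX replicate 1 came closest. The means were 358 ± 35.1 in Sham and 231 ± 51.1 in OVX+GEX (SD, n = 5; exact two-sided permutation p = 0.00794, the smallest that splits into 5 and 5 allow; adjusted p = 0.0159 over 6 community measures). OVX without GEX stood at 252.3 ± 39.2, and its own difference from Sham had an adjusted exact p of 0.0476. Between OVX+GEX and OVX the difference was -21.8 ASVs with an exact permutation p of 0.444 (adjusted p = 0.952).

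The Shannon index, which weighs the number of ASVs by how evenly counts spread over them, fell as well. It was 4.77, 4.97, 4.71, 5.03 and 5.05 in the Sham replicates and 4.68, 4.68, 4.01, 3.97 and 4.01 in the OVX+GEX replicates. The groups did not overlap, but OVX+GEX replicates 1 and 2 lay within 0.04 of the lowest Sham library. Means were 4.91 ± 0.16 and 4.27 ± 0.37 (SD, n = 5; exact permutation p = 0.00794, adjusted p = 0.0159). OVX stood at 4.35 ± 0.32. Pielou evenness, the Shannon index over its largest possible value for the ASVs seen, was 0.832 ± 0.0249 in Sham and 0.786 ± 0.0396 in OVX+GEX (adjusted exact p = 0.107). The most abundant ASV took 5.90% ± 1.402 and 6.98% ± 1.92 of counts (adjusted exact p = 0.419).

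**Figure D1:**
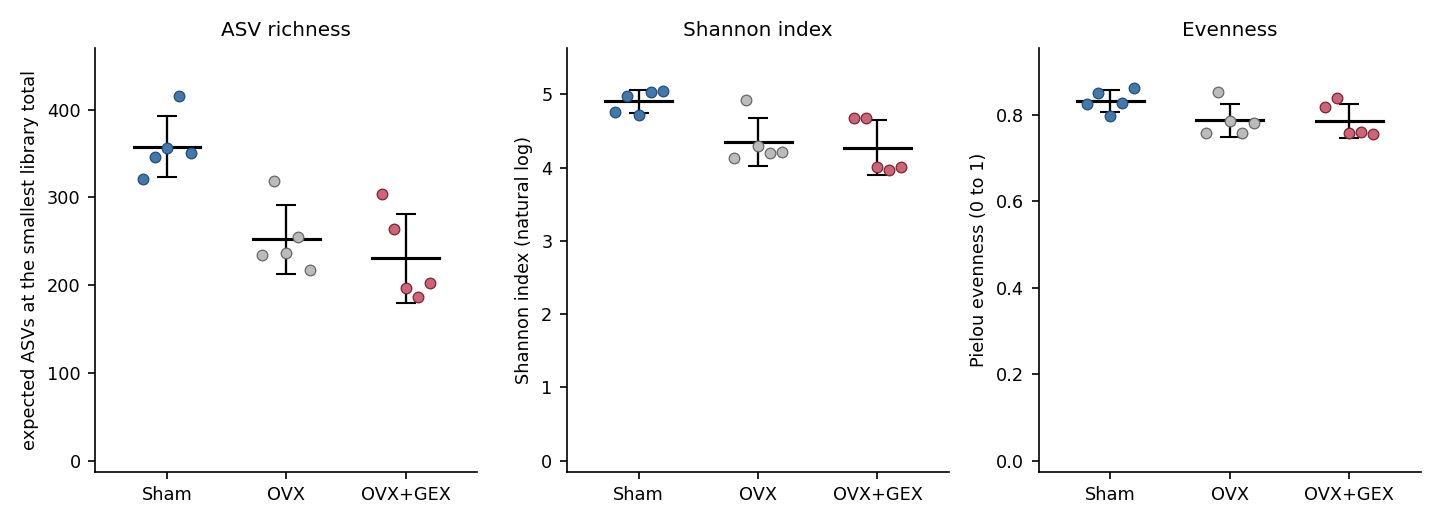
ASV richness (expected ASVs in 8498 reads), Shannon index (natural logarithm) and Pielou evenness for each of 5 Sham, 5 OVX and 5 OVX+GEX libraries; horizontal lines are means and bars 1 SD. All 5 OVX+GEX libraries sit below all 5 Sham libraries in richness (at most 304 against at least 320) and in the Shannon index, while the evenness of the groups overlaps.

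Without Sham replicates 3 and 4 richness differed by -109 ASVs and the Shannon index by -0.66, each with an adjusted exact p of 0.0714, where an exact p for 5 against 3 cannot be below 0.0357. With libraries paired by replicate number the differences were the same and the adjusted p was 0.0938, since 5 sign flips cannot give an exact p below 0.0625.

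Composition as a whole also differed from Sham. Group membership took up 0.221 of the squared Bray-Curtis distances between ASV shares of OVX+GEX and Sham (R2, exact permutation p = 0.00794, adjusted p = 0.0159), 0.2197 for OVX against Sham (adjusted exact p = 0.0476) and 0.0909 for OVX+GEX against OVX (exact permutation p = 0.643). On average an OVX+GEX library lay 0.569 ± 0.0411 from the Sham libraries and an OVX library 0.548 ± 0.0208 (SD, n = 5; exact permutation p = 0.333). By library, OVX+GEX replicate 1 lay nearest to Sham at 0.503, and replicates 2 to 5 lay at 0.574, 0.573, 0.616 and 0.580. Without OVX+GEX replicate 1 the difference from OVX was 0.0380 (exact permutation p = 0.0159, not adjusted), with OVX+GEX farther from Sham. Of the 15 fits with a library left out it alone was under 0.05. The others had exact permutation p-values of 0.270 to 0.635. The R2 without Sham replicates 3 and 4 was 0.260 (adjusted exact p = 0.0714), and on genus shares it was 0.256 (adjusted exact p = 0.0635). Paired by replicate number the adjusted exact p of R2 was 0.0938, again bounded by the 5 sign flips. With 1 library left out R2 passed in 6 of 10 fits, and missed without OVX+GEX replicate 4 or Sham replicate 2, 4 or 5 (adjusted exact p = 0.0794 to 0.127).

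**Figure D2:**
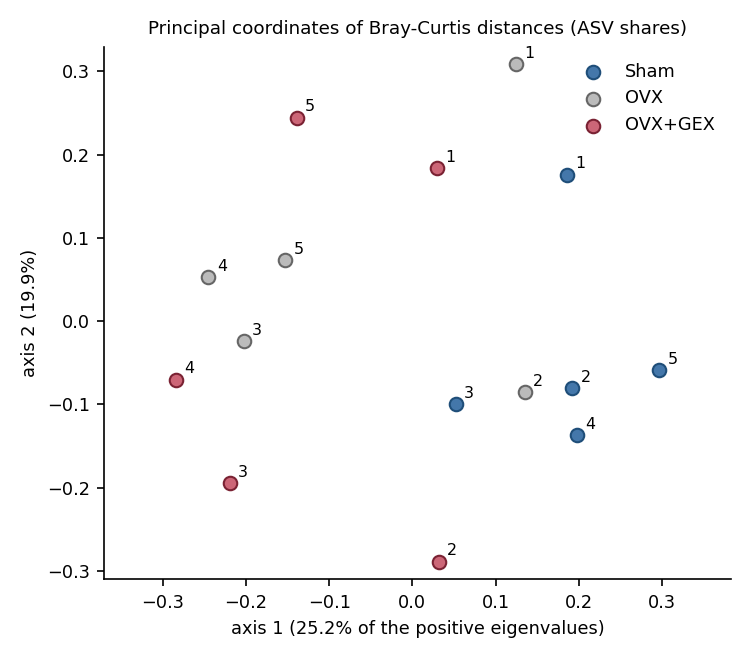
Principal coordinates of Bray-Curtis distances between the 15 Sham, OVX and OVX+GEX libraries, computed on ASV shares; points are libraries, numbered by replicate, and axes give the percent of the positive eigenvalues. All 5 OVX+GEX libraries lie to the left of all 5 Sham libraries on axis 1 and spread along axis 2, and OVX replicates 1 and 2 lie among the Sham libraries on axis 1.

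Lachnospiraceae, the family of many butyrate and acetate producers, carried most of the lost richness. Of the 14 families with at least 10 ASVs in the table, 3 (21.4%) held fewer ASVs in OVX+GEX than in Sham at an adjusted exact p under 0.05, and 0 held more. The same test called 0 of 14 families for OVX against Sham and 0 of 14 for OVX+GEX against OVX. At an unadjusted exact p under 0.05, OVX against Sham had Lachnospiraceae (p = 0.0397), Peptococcaceae (p = 0.0476) and Family XIII (p = 0.0159), and OVX+GEX against OVX had none.

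Lachnospiraceae gave 121, 154, 133, 185 and 173 expected ASVs in the Sham replicates and 98.7, 111, 66.0, 54.0 and 49.7 in the OVX+GEX replicates. No OVX+GEX library reached the lowest Sham library. The means were 153 ± 26.7 and 75.9 ± 27.4 (SD, n = 5; exact permutation p = 0.00794, adjusted p = 0.0370 over 14 families), a difference of -77.2 ASVs, or 60.6% of the difference in total richness. The family was also the largest part of Sham richness, 153 of 358 ASVs. For OVX against Sham its part of the difference was 59.1%. In OVX the family held 90.6 ± 40.3, and there OVX replicate 2, at 158 ASVs, lay among the Sham libraries.

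Eubacteriaceae, here almost wholly the genus Eubacterium, fell to 5.99 ± 1.99 ASVs from 13.6 ± 3.88 in Sham (adjusted exact p = 0.0370). Its ranges met, since OVX+GEX replicate 2 and Sham replicate 2 both held 9 ASVs to 3 digits. Christensenellaceae, a family often found with lean hosts in human surveys, fell to 4.39 ± 0.887 from 7.51 ± 1.55 (adjusted exact p = 0.0370), and its libraries held 3 to 5 ASVs against 5.97 to 9.21. The corresponding OVX means were 8.79 ± 3.11 and 5.98 ± 0.9997.

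Oscillospiraceae, the second large clostridial family, held 91.7 ± 7.16 ASVs in Sham and 71.0 ± 21.4 in OVX+GEX (adjusted exact p = 0.211). OVX+GEX replicate 1 had 105, above every Sham library, and replicates 2 to 5 had 63.8, 56.0, 52.0 and 78.4, below every Sham library. Muribaculaceae and Lactobacillaceae had means higher by 0.800 and 0.857 ASVs in OVX+GEX (adjusted exact p = 0.641 and 0.545). The 8 remaining families had adjusted exact p-values of 0.167 to 1.

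**Figure D3:**
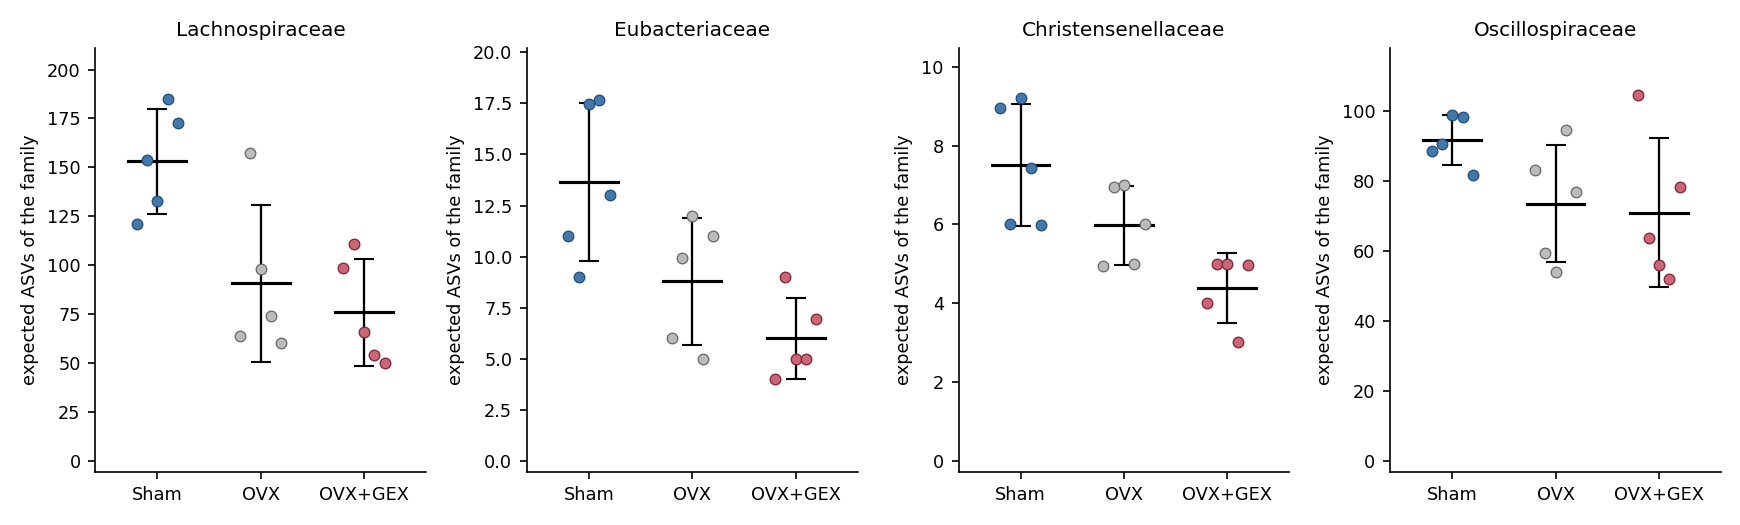
Expected ASVs of 4 families in 8498 reads for each Sham, OVX and OVX+GEX library; lines are means and bars 1 SD. The OVX+GEX libraries sit below all Sham libraries for Lachnospiraceae and Christensenellaceae (means 75.9 and 4.39 ASVs), for Eubacteriaceae (mean 5.99) the ranges meet at replicate 2, and for Oscillospiraceae OVX+GEX replicate 1 lies above every Sham library.

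Fewer counts of a family also yield fewer of its ASVs. Each of these families was therefore rarefied to the same number of its own reads. The step was added after the data were seen, and 3 of its 4 families are those called above. Its p-values, adjusted over 4 families and not 14, are thus no further support for the calls. At 1014 Lachnospiraceae reads the Sham libraries held 116 to 158 ASVs and the OVX+GEX libraries 50.0 to 105 (means 137.2 ± 18.0 and 74.0 ± 24.7, adjusted exact p = 0.0159 over 4 families). Eubacteriaceae held 11.4 ± 2.71 and 5.94 ± 1.96 ASVs at 63 reads (adjusted exact p = 0.0212), and Christensenellaceae 5.72 ± 0.996 and 4.14 ± 0.746 at 27 reads (adjusted exact p = 0.0159). Oscillospiraceae at 943 reads held 81.6 ± 4.47 and 67.2 ± 20.5 (adjusted exact p = 0.135). Without Sham replicates 3 and 4 the 3 families differed from Sham by -73.3, -5.01 and -2.59 ASVs at an adjusted exact p of 0.125 each, and paired by replicate number 0 of 14 families passed; neither design can pass with 3 families at its smallest p. Leaving out ASVs seen in 1 library also ended the 3 calls, with differences of -60.6 ASVs for Lachnospiraceae and -6.77 for Eubacteriaceae (adjusted exact p = 0.0556 each) and -2.27 for Christensenellaceae (adjusted exact p = 0.0741).

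The lower richness was spread over genera. Of 35 genera with at least 10 ASVs, 29 had fewer expected ASVs in OVX+GEX than in Sham and 6 had more, and in 7 of the 29 the groups did not overlap, counting Eubacterium, whose ranges meet at 9 ASVs to 3 digits. All 14 Lachnospiraceae genera among them had lower means, and 5 of those did not overlap. Schaedlerella lay below the Sham range in every library, with 7 to 9 ASVs in Sham and 1 to 6 in OVX+GEX. Marvinbryantia, a genus of formate-using acetogens, had 4 to 7 and 0 to 2. Faecalimonas had 4.68 to 14.3 and 1 to 4, Mediterraneibacter, with mucin-degrading members, 2.98 to 7.96 and 1 to 2, and Anaerotignum 1.93 to 5 and 0 to 1. Kineothrix, a butyrate producer and the Lachnospiraceae genus with the most ASVs, averaged 36.8 ± 10.2 and 20.6 ± 10.3, with overlap. These genus values are descriptions with no test.

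Which ASVs were shared was then counted. Sham libraries held 908 ASVs and OVX+GEX libraries 631, and 392 were seen in both, 43.2% of the Sham ASVs and 62.1% of the OVX+GEX ASVs. With every library thinned to 8498 counts, the numbers were 884, 629 and 391, or 44.2% and 62.2%. Of the 79 ASVs seen in all 5 Sham libraries, 32 were seen in all 5 OVX+GEX libraries, 44 in 1 to 4 and 3 in 0. Those 79 ASVs made up 61.4% of Sham counts and 68.5% of OVX+GEX counts (range 58.1% to 74.9%). For OVX the corresponding counts were 38, 39 and 2. ASVs seen in 0 Sham libraries held 9.90% ± 3.24 of OVX+GEX counts, and ASVs seen in 0 OVX+GEX libraries held 14.7% ± 3.18 of Sham counts (SD, n = 5).

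An ASV seen in at least 4 Sham libraries and 0 OVX+GEX libraries was found 17 times, and the converse 3 times. With OVX in place of OVX+GEX the numbers were 10 and 1. Sham held 908 ASVs against 631 in OVX+GEX, and 79 against 44 were seen in all 5 libraries. The 17 and 3 are therefore not independent of the difference in richness. Lachnospiraceae held 8 of the 17, Oscillospiraceae 4, the unplaced Eubacteriales 2, and Clostridiaceae, Eubacteriaceae and Peptococcaceae 1 each. All 3 of the converse were Oscillospiraceae. Of the 1555 ASVs in the table, Lachnospiraceae held 643 and Oscillospiraceae 474, so the split of the 17 was near that of the table. The same thinning left 17 and 3. Where an ASV has 0 counts, its share could still reach 3 counts of the library's total, here 0.0310% as the mean over OVX+GEX libraries and 0.0244% over Sham libraries, and such limits cover counting error only.

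At single ASVs edgeR's quasi-likelihood test called 0 of 379 (0%) between OVX+GEX and Sham. At an unadjusted p under 0.05 there were 69 (18.2%). DESeq2 called 3 (0.792%) and limma, on centred log-ratios, 4 (1.06%). With the replicate number as a block edgeR called 3, ASV_56, ASV_66 and ASV_67, at an adjusted p of 0.0158 each. The smallest edgeR adjusted p without the block was 0.149. The shares of 13 ASVs (3.43%) did not overlap between the groups.

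ASV_56 and ASV_66, both named Oscillibacter valericigenes, an anaerobe that forms valerate, ran opposite ways. ASV_66 had 56, 49, 83, 24 and 7 counts in the Sham replicates, 38, 21, 14, 0 and 57 in OVX and none in OVX+GEX, at least 11.2-fold lower in OVX+GEX than in Sham against a floor of 3 counts per library. ASV_56 had 0 counts in all Sham libraries, 38 counts in OVX replicate 4 alone, and 37, 29, 85, 7 and 30 in the OVX+GEX replicates, at least 16.1-fold higher than Sham. Each group thus held 1 of the pair in every library.

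ASV_67, named Eubacterium xylanophilum after a xylan-degrading relative, had 43, 130, 55, 52 and 50 counts in Sham and 0 in OVX+GEX, at least 18.1-fold lower. In OVX it was seen in replicate 3 only, with 25 counts. ASV_107, named Ruminococcus gauvreauii, had 0 counts in Sham, 10, 24, 8, 14 and 16 in OVX+GEX (at least 6.06-fold higher) and 0, 0, 58, 36 and 74 in OVX. ASV_139 and ASV_100 completed the 3 smallest p-values in each direction. ASV_139, of the pectin-degrading genus Monoglobus, had 195, 14 and 6 counts in OVX+GEX replicates 2 to 4. It had 0 in the other OVX+GEX libraries and in all Sham and OVX libraries. It met the count filter through those replicates with libraries of OVX+PBS or OVX+FMT, so its p is no support for a difference. Of the 10 fits with a library left out, 7 still tested it. ASV_100, of Kineothrix, had 0, 40, 15, 38 and 149 counts in Sham, 56 and 73 in OVX replicates 1 and 2, and 0 in the other OVX libraries and in OVX+GEX.

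At the genus level 4 of 81 genera (4.94%) passed the test for OVX+GEX against Sham, all of them higher: Lawsonibacter, Shigella, Adlercreutzia and Ligilactobacillus. The same fit called 0 of 81 for OVX against Sham (9, or 11.1%, at an unadjusted p under 0.05) and 0 of 81 for OVX+GEX against OVX (5, or 6.17%, at an unadjusted p under 0.05). DESeq2 called 5 genera (6.17%) for OVX+GEX against Sham, and limma 2 (2.47%). With the replicate number as a block 1 genus was called, Lawsonibacter, and without Sham replicates 3 and 4 it was 0 of 77. Fold changes below are relative to TMM scaling, under which 39 genera were higher and 41 lower in OVX+GEX; plain library totals moved the median of all genera from -0.02 to -0.61 on the log2 scale and the split to 27 higher and 53 lower, and called 0.

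Lawsonibacter, a butyrate producer of the clostridia that the table files under Eubacteriales with no family, had the largest rise among the called genera with counts in both groups. It had 37, 26, 11, 139 and 34 counts in the Sham replicates, 55, 201, 49, 150 and 120 in OVX, and 319, 40, 126, 280 and 257 in OVX+GEX. Its share averaged 0.333% ± 0.201 in Sham, 1.11% ± 0.586 in OVX and 2.10% ± 1.19 in OVX+GEX (SD, n = 5). OVX+GEX replicate 2, at 0.401%, lay inside the Sham range and the other 4 libraries lay above it. The log2 fold change was 3.33 ± 0.76 (SE, edgeR adjusted p = 0.0124), beside 2.19 ± 0.73 for OVX against Sham (adjusted p = 0.225) and 1.14 ± 0.71 for OVX+GEX against OVX (adjusted p = 0.591). It passed in all 10 fits that left out a library and with the replicate block (adjusted p = 0.00850), and missed with library totals (adjusted p = 0.0594) and without Sham replicates 3 and 4 (adjusted p = 0.0776).

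A single ASV, ASV_20, held 80.4% of the Lawsonibacter counts in OVX+GEX and 74.5% in Sham. Its counts were 23, 12, 6, 131 and 12 in Sham and 233, 40, 126, 225 and 198 in OVX+GEX. At the species level 1 of 125 names (0.8%) passed, Lawsonibacter asaccharolyticus (log2 fold change 3.11 ± 0.79 SE, adjusted p = 0.0499), which is the whole of the genus here, and with the replicate block 0 passed. DESeq2 also called Shigella flexneri and Adlercreutzia equolifaciens. Limma also called Romboutsia ilealis and Anaerotignum lactatifermentans. The latter had 13, 8, 4, 6 and 5 counts in the Sham replicates and 0 in every library outside Sham. It was at least 2.03-fold lower in OVX+GEX than in Sham. It met the count filter only through the Sham libraries, so its call is no support for a difference. For it edgeR gave an adjusted p of 0.189 and DESeq2 one of 0.998.

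Ligilactobacillus, a lactic acid bacterium of the mouse stomach and gut, rose by the most in share of counts. It took 7.42%, 12.5%, 21.0%, 13.9% and 4.46% of counts in the Sham replicates and 13.7%, 19.97%, 40.8%, 45.7% and 25.8% in the OVX+GEX replicates. The groups overlapped, since Sham replicate 3 exceeded OVX+GEX replicates 1 and 2. Means were 11.9% ± 6.37 and 29.2% ± 13.6, with 24.8% ± 12.6 in OVX (SD, n = 5). The edgeR log2 fold change was 1.95 ± 0.57 (SE, adjusted p = 0.0390), beside 1.48 ± 0.56 for OVX against Sham (adjusted p = 0.279). The exact permutation test of the share gave p = 0.0397 and an adjusted p of 0.198 over 10 genera. With the replicate block the adjusted p was 0.0629, without Sham replicates 3 and 4 it was 0.0955, and of the 10 fits without 1 library only those without Sham replicate 3 or OVX+GEX replicate 1 passed.

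Adlercreutzia, with members that turn the soy isoflavone daidzein into the estrogen-like equol, had 0.401%, 0.441%, 0.461%, 0.554% and 0.434% in Sham and 0.498%, 1.46%, 1.09%, 0.377% and 1.45% in OVX+GEX. Sham libraries were tightly grouped, OVX+GEX replicates 2, 3 and 5 lay above all of them, and replicate 4 lay below all of them. The log2 fold change was 1.84 ± 0.54 (SE, edgeR adjusted p = 0.0390), beside 1.08 ± 0.53 for OVX against Sham (adjusted p = 0.406). With the replicate block the adjusted p was 0.121, without Sham replicates 3 and 4 it was 0.207, and of the 10 fits without 1 library only those without OVX+GEX replicate 1 or 4 passed. Within the genus ASV_133 had 0, 0, 3, 3 and 0 counts in Sham and 18, 54, 34, 11 and 12 in OVX+GEX, one of the 4 ASVs called by limma (adjusted p = 0.0213).

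Shigella, an enterobacterium whose 16S gene is nearly that of Escherichia, had 0 counts in all Sham libraries. In OVX+GEX it had 14, 0, 0, 419 and 0 counts, so replicate 4, at 4.93% of its library, held nearly all of them. Set against a Sham floor of 3 counts in each library, the mean share was at least 41.5-fold higher (adjusted p = 0.0390 by edgeR), and at least 1.35-fold higher without replicate 4, when the adjusted p was 0.378. In OVX it was seen in 1 library with 3 counts. The call was also lost without any 1 of the 5 Sham libraries (adjusted p = 0.0699 to 0.115). With the replicate block the adjusted p was 0.0605 and without Sham replicates 3 and 4 it was 0.206. Whether these counts belong to Escherichia was not tested.

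**Figure D4:**
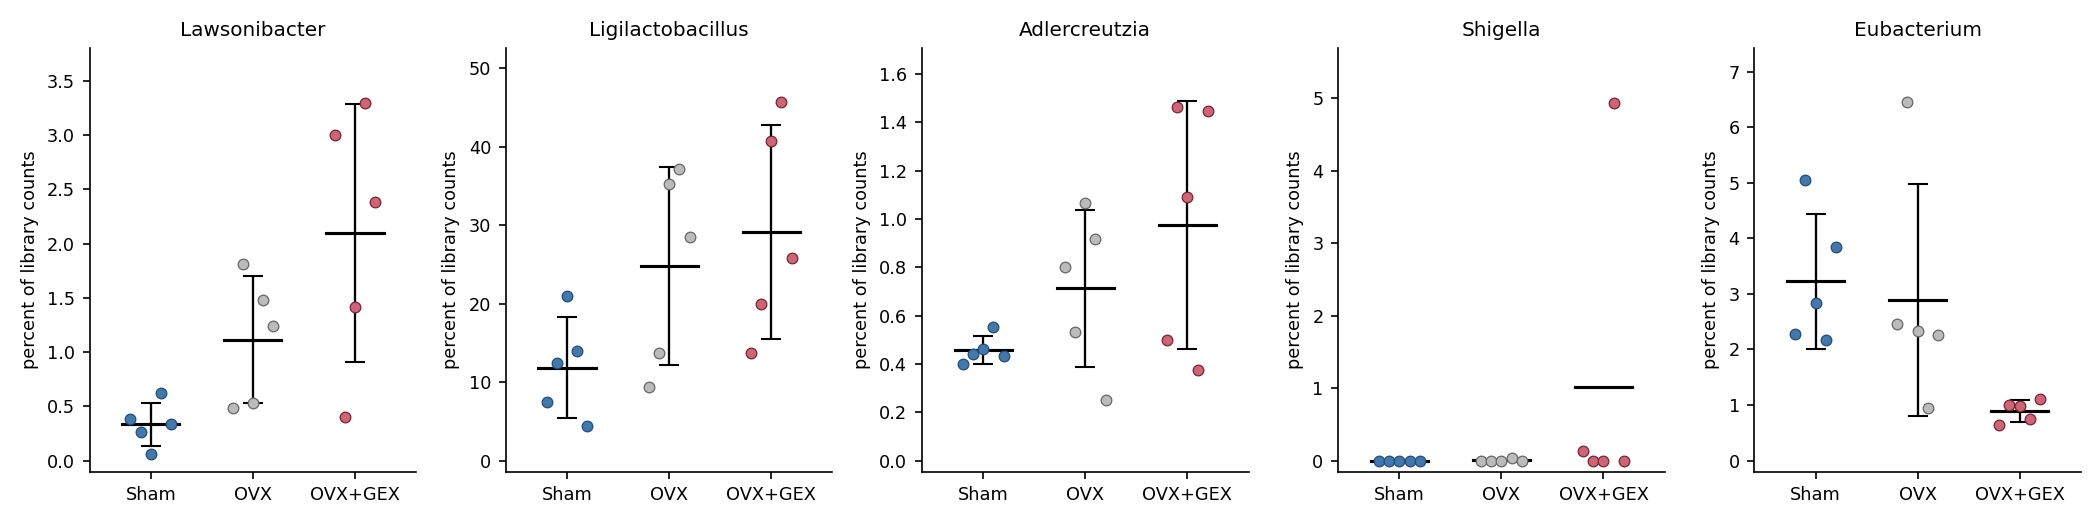
Share of library counts (percent) of 5 genera in each Sham, OVX and OVX+GEX library; lines are means and bars 1 SD, left out for Shigella, which is at 0 in most libraries. Lawsonibacter, Ligilactobacillus and Adlercreutzia average 2.10%, 29.2% and 0.976% in OVX+GEX against 0.333%, 11.9% and 0.458% in Sham; Shigella stands out in 1 OVX+GEX library; Eubacterium lies lower in all 5 OVX+GEX libraries than in any Sham library.

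Eubacterium, whose members include butyrate producers, was the abundant genus most clearly apart in share, though it did not pass the tests across genera. Its share was 2.27%, 5.05%, 2.83%, 2.16% and 3.84% in Sham and 0.639%, 0.992%, 0.980%, 0.741% and 1.11% in OVX+GEX, with no overlap. The means were 3.23% ± 1.22 and 0.893% ± 0.196, with 2.89% ± 2.09 in OVX (SD, n = 5). The exact permutation p was 0.00794 and the adjusted p 0.0794 over 10 genera, the smallest that 1 genus at the smallest p can reach. The edgeR log2 fold change was -1.16 ± 0.57 (SE, adjusted p = 0.450), -1.85 with library totals (adjusted p = 0.117). For OVX+GEX against OVX the fold change was -1.45 ± 0.57 (adjusted p = 0.272), and for OVX against Sham 0.29 ± 0.56 (adjusted p = 0.872).

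Of the 10 genera with the highest mean share, Ligilactobacillus and Eubacterium were at an unadjusted exact p under 0.05 and the other 8 had adjusted exact p-values of 0.357 to 0.841. Among the 8, Lachnoclostridium averaged 6.80% ± 3.46 in Sham and 3.17% ± 3.53 in OVX+GEX. Kineothrix averaged 8.87% ± 5.75 and 5.38% ± 2.87, and Gluceribacter 5.14% ± 1.22 and 3.48% ± 1.77. The cellulose-degrading Acetivibrio averaged 8.11% ± 1.96 in Sham and 6.61% ± 6.38 in OVX+GEX, where replicate 2 had 18.0% and the others at most 4.35%, below the lowest Sham library (5.20%). Anaerobacterium averaged 6.33% ± 2.21 in Sham and 4.61% ± 2.49 in OVX+GEX, and Ruminococcus 5.50% ± 1.76 and 6.09% ± 5.09, gaps smaller than the larger SD of each genus.

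Shares of 4 genera (4.94%) did not overlap between OVX+GEX and Sham: Eubacterium, Anaerotignum and Mediterraneibacter, lower in OVX+GEX, and Romboutsia, higher. Romboutsia, a spore-former of the small intestine, had 0, 8, 0, 7 and 0 counts in Sham, 23, 20, 25, 14 and 17 in OVX+GEX, and 0, 12, 33, 41 and 10 in OVX. Its log2 fold change was 3.68 ± 1.42 (SE, edgeR adjusted p = 0.175), and DESeq2 (adjusted p = 0.0410) and limma (adjusted p = 0.0417) called it. The genera at an unadjusted p under 0.05 numbered 9 (11.1%). Besides those named they were Monoglobus, with 450 counts in OVX+GEX replicate 2 and 5 to 17 in the other 4, and Anaerotaenia and [Bacteroides], both unseen in OVX+GEX. Anaerotaenia, a Lachnospiraceae genus, was seen in Sham replicates 1 to 3 with 19, 28 and 61 counts, at least 5.37-fold lower in OVX+GEX. [Bacteroides] was seen in 4 Sham libraries with 4 to 23 counts. It met the count filter only through these and 1 OVX+FMT library, so its p is no support for a difference.

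**Figure D5:**
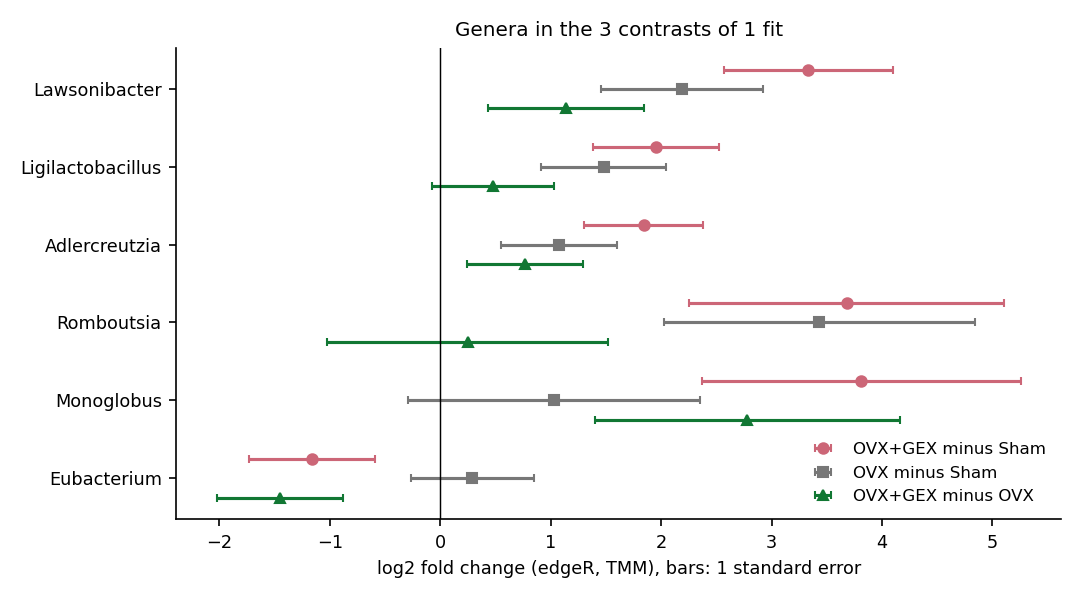
Log2 fold changes (edgeR, TMM scaling) of 6 genera in 3 contrasts of 1 fit, with bars of 1 standard error; the contrasts share groups and are not independent. OVX+GEX minus Sham and OVX minus Sham lie on the same side of 0 for 5 of the genera, and Eubacterium is at -1.16 for OVX+GEX minus Sham and 0.29 for OVX minus Sham.

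Among phyla no share passed. Firmicutes held 77.1% ± 16.5 in OVX+GEX and 80.8% ± 6.73 in Sham, Bacteroidetes 18.1% ± 16.9 and 14.8% ± 7.03, and Verrucomicrobia, here Akkermansia, a mucin degrader, 2.33% ± 1.22 and 3.34% ± 2.64 (SD, n = 5; adjusted exact p = 0.730 for each). On the log2 scale the ratio of Firmicutes to Bacteroidetes was 2.76 ± 2.08 and 2.54 ± 0.67 (adjusted exact p = 0.786), and it ran from 0.37 to 5.62 over the OVX+GEX libraries against 1.36 to 2.97 in Sham. Duncaniella, the only Muribaculaceae genus in the table, carried that spread with 25.2%, 1.87%, 6.23%, 9.64% and 39.6% in the OVX+GEX replicates and 9.82% to 23.7% in Sham. The spread within OVX+GEX was larger than the difference between the means.

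Lachnospiraceae took 33.4% ± 8.71 of Sham and 18.0% ± 8.79 of OVX+GEX counts (exact permutation p = 0.0317, adjusted p = 0.107 over 9 families), beside 18.5% ± 11.7 in OVX. By library the family held 23.7% to 46.2% in Sham and 9.41% to 32.1% in OVX+GEX, with overlap. Lactobacillaceae took 12.03% ± 6.49 and 29.2% ± 13.7 (exact permutation p = 0.0476, adjusted p = 0.107), and Eubacteriales without a family, mainly Lawsonibacter in OVX+GEX, 0.758% ± 0.545 and 2.23% ± 1.11 (exact permutation p = 0.0397, adjusted p = 0.107). Oscillospiraceae (24.2% ± 1.85 and 20.7% ± 8.65) and Peptococcaceae (2.03% ± 0.664 and 1.45% ± 0.950) differed at an adjusted exact p of 0.536 and 0.400.

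EdgeR called 1 of 28 families (3.57%), Enterobacteriaceae, which rests on OVX+GEX replicate 4 (450 counts, with 14 in replicate 1 and 0 elsewhere), and 0 with the replicate block. Lactobacillaceae, the unplaced Eubacteriales and Eggerthellaceae followed, all higher, at an adjusted p of 0.0530 each. DESeq2 called 8 families (28.6%): Enterobacteriaceae, Lactobacillaceae, the unplaced Eubacteriales, Eggerthellaceae and Peptostreptococcaceae higher, and Lachnospiraceae, Eubacteriaceae and Christensenellaceae lower.

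Taxa grouped by known functions are described by counts beside all 81 genera, of which 39 were higher, 41 lower and 4 called. Membership goes by name, and whether the bacteria carry the genes was not measured. Of the trimethylamine-forming genera 6 were tested: 3 were higher and 3 lower with TMM (2 and 4 with library totals), and 1, Shigella, was called. Their summed share was 8.95% ± 3.56 in Sham, 5.13% ± 4.77 in OVX and 5.94% ± 4.61 in OVX+GEX (SD, n = 5), and ran from 0.724% to 13.0% over the OVX+GEX libraries and from 6.08% to 14.8% in Sham. Lachnoclostridium held most of the Sham sum and 2.81%, 9.00%, 3.33%, 0.377% and 0.344% in the OVX+GEX replicates. In OVX+GEX replicate 4 Shigella and Escherichia together held 5.30%, more than Lachnoclostridium. Its ASVs named for Clostridium scindens, a bile acid 7-alpha-dehydroxylating species, held 4.94% ± 2.88 in Sham and 2.43% ± 3.15 in OVX+GEX.

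Of 9 butyrate producers tested 7 were lower and 2 higher in OVX+GEX, and the 1 called, Lawsonibacter, was higher. Their median log2 fold change was -0.83 (all genera -0.02), but -0.12 (all genera 0) with genera at 0 counts in a group set at their bound. Coprococcus, one of the 7, was seen in 1 Sham library and 0 OVX+GEX libraries, below what 3 counts a library can show. Butyribacter (-3.16, adjusted p = 0.585) was seen in all 5 Sham libraries and in 2 of OVX+GEX. Together they held 15.1% ± 6.71 of Sham, 9.96% ± 5.86 of OVX and 10.1% ± 3.20 of OVX+GEX counts. Of 23 Lachnospiraceae genera 18 were lower and 5 higher (20 and 3 with library totals), with a median of -0.46 (-0.45 with genera at 0 in a group at their bound) and 0 called. Both acetogens, Blautia (-0.05, adjusted p = 0.986) and Marvinbryantia (-1.18, adjusted p = 0.893), were lower, with a summed share of 2.55% ± 1.38 in Sham and 1.17% ± 0.575 in OVX+GEX.

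Lactic acid bacteria with bifidobacteria had 3 of 4 genera higher and 1 called, Ligilactobacillus, which made up nearly all of their 12.04% ± 6.51 in Sham and 29.3% ± 13.7 in OVX+GEX. Bifidobacterium (1.92, adjusted p = 0.771) and Lactococcus (2.18, adjusted p = 0.722) were higher and Lactobacillus (-0.68, adjusted p = 0.893) lower. Plant fibre clostridia had 3 of 4 genera higher with TMM and 1 of 4 with library totals, with a summed share of 20.4% ± 1.08 in Sham and 17.5% ± 6.93 in OVX+GEX. Mucus-associated genera were split 2 and 2 with TMM and 1 and 3 with library totals. Of 5 Erysipelotrichia genera 3 were higher, and of 3 Family XIII genera 2 were higher, with 0 called in either. Among 18 Oscillospiraceae and Ruminococcaceae genera 10 were higher and 8 lower with TMM, 5 and 13 with library totals, and 0 were called. [Eubacterium] has ASVs filed under both Oscillospiraceae and Lachnospiraceae, and counts as a lower genus in both lists.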

How the data were processed

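The authors deposited 1 table of read counts per ASV with a taxonomy of 7 ranks, made from a BIOM file per the file headers. DNA came from a commercial fecal kit and SMRTbell libraries per the labels' protocols. The submitters' processing notes list Subread without a version or role. Which denoiser, primers and taxonomy database were used is not given in the sources used. The table held 1555 ASVs and 300831 counts, and 0 values of 1. Columns were matched by name. Those spelled OVX+GES were taken as the samples titled OVX+GEX, and the column order of the groups differs from the labels' library names.

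Counts were summed per genus, species name and family and tested with edgeR 4.0.16's quasi-likelihood F test in R 4.3.3 (TMM, all 25 libraries in 1 fit, features reaching 3 counts in 5 or more libraries, Benjamini-Hochberg threshold 0.05). Standard errors come from the F statistic. Rarefaction used scipy 1.17.1. Community measures, richness by family and shares were tested by exact two-sided permutation over the 252 splits of 10 libraries, with numpy 2.4.6. Shares covered phyla and families of at least 1% and the 10 genera with the highest mean share, over all 25 libraries. R2 (the between-group part of squared Bray-Curtis distances) used the same splits. Cages, litters and days are unlabelled, and p-values speak only of the spread between these libraries, which may be technical.

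Deviations from group means of same-numbered OVX+GEX and Sham libraries correlated at 0.11 to 0.28, each best with its own number, so fits with the number as a block are given where a call changes; the pairing comes from the data, as the labels state none. Named taxa were those abundant enough above, those past the threshold or at an unadjusted p under 0.05, the 3 ASVs with the smallest p in each direction, list members at an unadjusted p under 0.05 and taxa called by DESeq2 1.42.0 or limma 3.58.1 (centred log-ratios, 0.5 added); further genera (richness by genus, list members, Anaerotignum and Mediterraneibacter) and the table of ASVs absent from a group were chosen after their values were seen. The members and lists were chosen with earlier results of these data known. On simulated data for this comparison, with 20 of the 81 genera changed 8-fold, 15 of the 20 were called and 0 others. For 200 of 379 ASVs, 163 were called with 15 others. The simulation gave every feature the same dispersion. In the data the spread differed between genera, with standard errors of 0.47 for Christensenella and 2.81 for Shigella, so these rates need not hold.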

Additional observations from a re-analysis of the deposited data

Results flagged for a closer look

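Measures and shares were screened in 98 sets of 5 values, each set from 1 group. In 9 sets a library stood apart, its gap to the nearest other library being over 0.71 of the whole range. That cut-off flags about 1 in 20 sets of normal values, a rate that shares, some with several zeros, need not follow. Some sets also repeat each other, as a family and its main genus do, and no cause was tested. Sham replicate 1 had the highest Duncaniella share and thereby Muribaculaceae share, 23.7% against 9.82% to 11.7% in the other Sham libraries, the highest Bacteroidaceae share, 2.82% against 0.645% to 0.991%, and the lowest log2 ratio of Firmicutes to Bacteroidetes, 1.36 against 2.66 to 2.97. Sham replicate 4 had the highest share of Eubacteriales without a family, 1.72% against 0.442% to 0.622%. OVX+GEX replicate 2 had 18.0% Acetivibrio, a cellulose-degrading clostridium, against 3.09% to 4.35%, and 4.51% Monoglobus against 0.0470% to 0.191%. OVX+GEX replicate 4 had 4.93% Shigella and 5.30% Enterobacteriaceae, against 0 to 0.132% for each in the other OVX+GEX libraries.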

How the results depend on the processing

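The number of genera called was 2 with TMMwsp, DESeq2 size factors, limma or no filter, 1 with the replicate block or only the groups compared, 0 with library totals or without Sham replicates 3 and 4 (chosen after seeing the data), and 1 to 4 with a library left out. For families it was 2 with TMMwsp, size factors, library totals or limma, 8 with DESeq2, 3 with no filter, 0 with a count of at least 10, with the replicate block or with only the groups compared, and 0 to 4 with a library left out; for species 2 with TMMwsp or no filter, 3 with DESeq2 or limma, 0 with library totals, the block or thinning, and 0 to 2; for ASVs 3 with DESeq2, no filter or the block, 4 with limma, 5 with only the groups compared, and 0 in each fit with a library left out.

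With a library left out richness differed by -146 to -113 ASVs and the Shannon index by -0.738 to -0.560, past the threshold in all 10 fits each; R2 was 0.210 to 0.277 (past it in 6 of 10), the evenness difference -0.0594 (past the threshold without OVX+GEX replicate 2) to -0.0384, and the distance to Sham 0.00970 to 0.0380. In pairs by replicate number (the block) richness differed by -127 and the Shannon index by -0.636, and R2 was 0.221, with 0 of the 3 past the threshold; without Sham replicates 3 and 4 they were -109, -0.659 and 0.260, and R2 on genus shares was 0.256. Families with lower richness numbered 0 without ASVs seen in 1 library, with the block or without Sham replicates 3 and 4, and 0 to 5 with a library left out, where splits into 5 and 4 give no p below 0.0159.

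Sign changes occurred in values that passed no test. With centred log-ratios Bacteroidetes, Muribaculaceae and Akkermansia differed by -0.449, -0.441 and 0.0828; without Sham replicates 3 and 4 Ruminococcus share by -0.143 points and Eggerthellaceae richness by 1.20. With a library left out the Firmicutes to Bacteroidetes log2 ratio ran from -0.489 to 0.824, shares of Firmicutes from -8.25 to 1.87, Bacteroidetes -2.81 to 7.29, Muribaculaceae and Duncaniella -2.50 to 6.92, Verrucomicrobia, Akkermansiaceae and Akkermansia -1.54 to 0.0476, Bacteroidaceae -0.332 to 0.379 and Ruminococcus -1.45 to 1.95 points, and richness of Eggerthellaceae from -0.466 to 0.733 and of unplaced Firmicutes from -0.118 to 0.382. The causes were not tested. Depth limits taxa near 3 counts a library, and 5 libraries a group limit every exact test.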
